A study of Mus musculus with 9 samples.

Results

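Libraries of ileal epithelial cells from mice given a cecal material transfer were set against libraries from mice given antibiotics. The 6 libraries, 3 in each group, were taken by their descriptions from a series of 9, and all 547 endogenous genes of the probe panel were read in them. Every mouse was a male of the non-obese diabetic (NOD) strain, in which diabetes arises spontaneously, and was sampled at postnatal day 23. The transfer mice are described only by the cecal material transfer, and whether they had first received antibiotics is not stated in their labels. The series title calls the transfer a rescue of an antibiotic effect. The antibiotic mice are described as "1PAT antibiotics", with the agent, dose and timing not given in the sources used here. The other 3 libraries, from control mice, entered the estimate of spread and are given as a further level beside each pair. Separate animals for the 3 libraries within a group are not named in any label, and the errors measure only how these libraries vary.

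The cecum holds the densest microbial community of the mouse gut, and material from it carries live bacteria to a recipient. The ileal epithelium faces that community with a single layer of absorptive, goblet and Paneth cells, among which intraepithelial lymphocytes sit. Microbes are sensed there through Toll-like and NOD receptors. The epithelium responds with antimicrobial proteins, antibody transport and chemokines, and lymphocyte cytokines of the interleukin-17 and interleukin-22 type act back on it. Interferon programmes in the epithelium are partly set by the microbiota.

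No gene of the panel passed the test between transfer and antibiotic libraries. Of 470 genes with a measurable level, 0 (0% of those tested) had an adjusted p under 0.05 by the quasi-likelihood test of edgeR, adjusted by Benjamini-Hochberg over all of them, and the smallest adjusted p was 0.993. Without adjustment 12 genes (2.55%) had a p under 0.05, of which 6 were higher and 6 lower in transfer libraries. DESeq2 called 0 genes as well, with 14 at an unadjusted p under 0.05. The smallest adjusted p by edgeR depended on single libraries. It was 0.288 without transfer replicate 2 and 0.297 without control replicate 3, with 0 genes called in either. All statements on single genes that follow are therefore descriptions of levels and of their error. The sides were even: 229 genes (48.7%) had a log2 fold change above 0, and the median over all 470 was -0.016. The libraries were scaled on these same genes, which holds the centre of the changes near 0. This balance is therefore a reference for the lists and not a result.

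The groups were separated without overlap in 35 genes (7.45%). In 17 of these (3.62%) every transfer library lay above every antibiotic library, and in 18 (3.83%) every transfer library lay below. With 3 libraries on each side a two-sided exact permutation test stops at p = 0.1, so non-overlap is used here only to describe. The 12 genes at an unadjusted p under 0.05 became 34 without transfer replicate 2, 22 without antibiotic replicate 3, 19 without control replicate 3, and 6 without either transfer replicate 1 or transfer replicate 3. The number thus depended on single libraries.

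Differences between the groups were small for most genes, and the error of each was wide. The median size of the log2 fold change was 0.30, whatever its sign. It was 0.65 for transfer against control and 0.58 for antibiotic against control, values that share libraries with the first and with each other. Control libraries also varied more among themselves: the median SD of a gene's log2 level was 0.57 in control, 0.44 in transfer and 0.44 in antibiotic libraries. How far this enlarged the values against control was not tested. The 95% interval of a gene's log2 fold change reached a median of 1.06 to either side. For 86 genes (18.3%) the whole interval lay within 2-fold either way, so that a 2-fold difference was outside it. That count was 28 without antibiotic replicate 1, 34 without transfer replicate 3, 38 without antibiotic replicate 3, 47 without transfer replicate 2, 48 without transfer replicate 1 and 149 without control replicate 3. For the other genes the interval reached 2-fold or more on at least one side. Where a list median is followed by values in brackets, they are the lowest and the highest when each of the 9 libraries was left out in turn, and a range beside the log2 fold change of a gene is the same, given where it moved by over 1.5 times.

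Precision followed the level of a gene. Levels are given as CPM, counts scaled to a common library total, and only levels of the same gene are compared. Among the 117 genes with the lowest levels, between 8.88 and 45.7 CPM on average, the interval reached a median of 1.43 to either side and 0 had an interval within 2-fold. Among the 118 genes with the highest levels it reached 0.80 to either side, and 50 had such an interval. The 118 and 117 genes between them gave 4 and 32. A log2 fold change past 1 in size was found in 28 genes, 18 of them higher and 10 lower in transfer libraries.

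**Figure D1:**
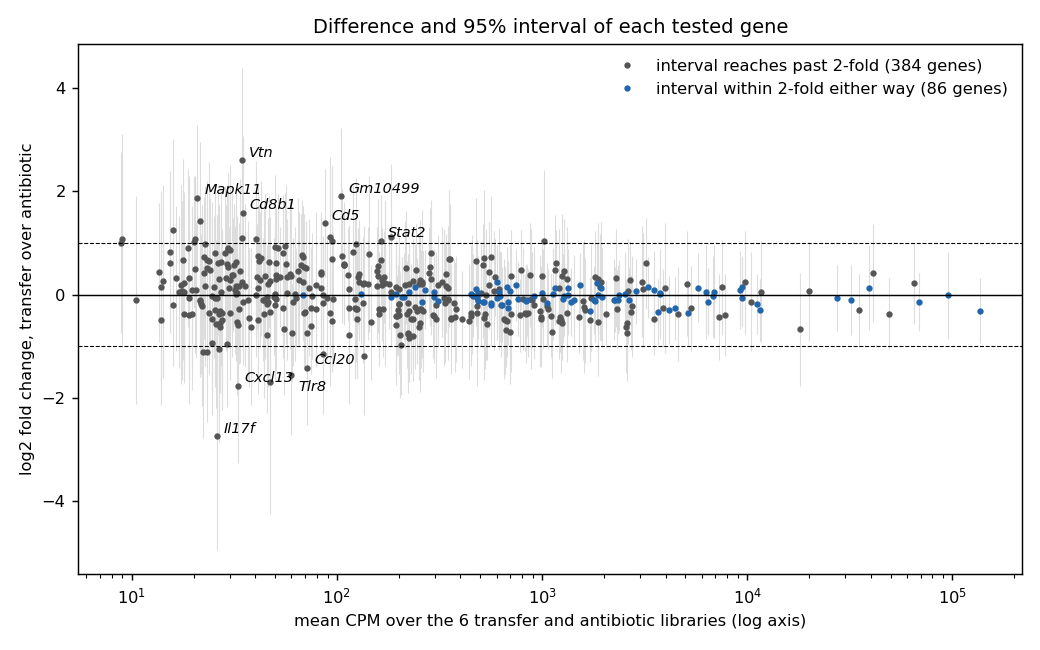
Log2 fold change of transfer over antibiotic (vertical axis) against mean CPM over the 6 libraries (horizontal log axis) for 470 tested genes. Grey lines are 95% intervals, blue points the 86 genes with an interval within 2-fold, dashed lines mark 2-fold, and the 10 genes with the smallest p are named. Intervals narrow to the right, and the points far from 0 lie at low levels.

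Libraries of both groups were deep enough for most of the panel and differed in their spike-in counts. Total gene counts were 359982, 747434 and 686749 in transfer, 538460, 323129 and 663302 in antibiotic and 417678, 613925 and 517969 in control libraries. Log2 CPM correlated between 0.943 and 0.980 among transfer libraries, between 0.953 and 0.956 among antibiotic libraries, and between 0.940 and 0.971 across both groups, so a pair from different groups was about as alike as a pair from the same group. Transfer replicates 1 and 3 were the most alike pair, and transfer replicate 2 stood apart from them. Control replicate 3 stood further apart, correlating at 0.803 to 0.909 with transfer and at 0.833 to 0.862 with antibiotic libraries. With control replicates 1 and 2 it correlated at 0.888 and 0.934. The 6 positive spike-in probes summed to 2994, 13211 and 9344 counts in transfer, 29934, 35248 and 19879 in antibiotic and 3437, 7121 and 24369 in control libraries, with every antibiotic library above every transfer library. Scaled on the spike-in counts, 468 of the 470 genes had a log2 fold change above 0 and the median moved to 2.03. With upper-quartile scaling 279 genes were above 0, with housekeeping scaling 271, and in the deposited signal 292 of 456 with a median of 0.18. Directions are therefore relative to the other genes of the panel. The control libraries were read at run positions 1 to 3, the antibiotic libraries at 4 to 6 and the transfer libraries at 7 to 9 per the file headers, so run position and group cannot be told apart.

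**Figure D2:**
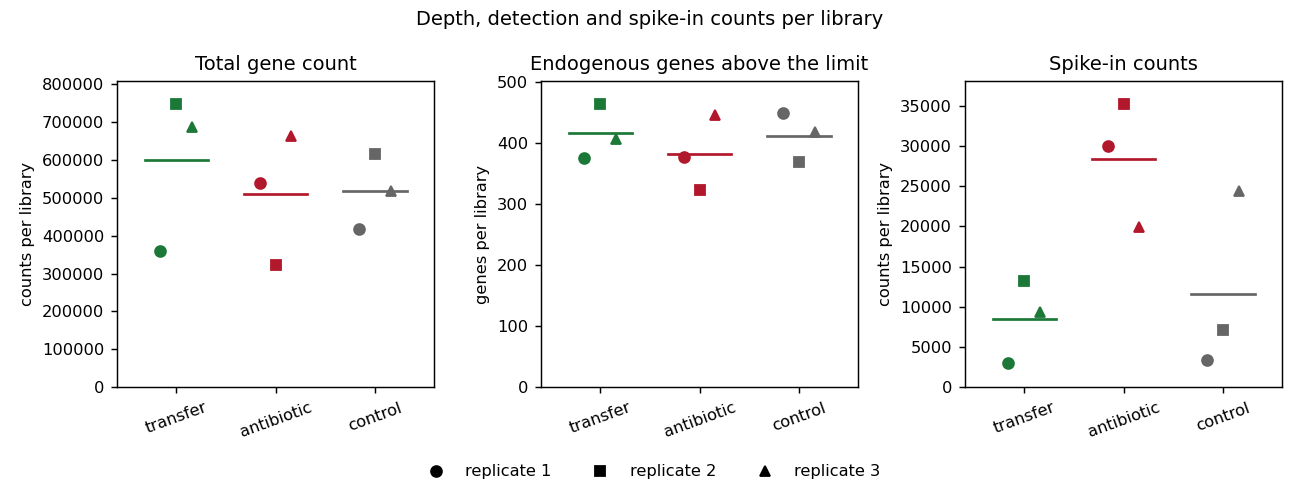
Total gene counts, endogenous genes above the negative-control limit, and spike-in counts (vertical axes, per library) in transfer, antibiotic and control libraries. Points are libraries and bars group means. Depth and detection overlap between groups, and the spike-in counts of antibiotic libraries, 19879 to 35248, lie above those of transfer libraries, 2994 to 13211.

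Detection overlapped between the groups, with 376, 464 and 406 endogenous genes detected in transfer libraries and 377, 323 and 446 in antibiotic libraries. Antibiotic replicate 2, the shallowest library, had the fewest. A gene counted as detected in a library when its count exceeded the mean of the 8 negative-control probes plus 2 SD, a limit equal to 35.9, 13.9 and 18.0 CPM in transfer libraries and 23.2, 46.7 and 16.6 CPM in antibiotic libraries. Of the 547 endogenous genes 309 were detected in all 6 libraries and 58 in none. For testing, a gene had to be detected in at least 3 of the 9 libraries, which kept 456 endogenous and 14 housekeeping genes and left out 91 endogenous genes. The genes Vtn, Ccl2, Fyn and Tnfsf8 were detected in all 3 transfer libraries and in 0 antibiotic libraries, and 0 genes showed the reverse.

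Vitronectin (Vtn), an adhesive glycoprotein of plasma and matrix, had the smallest p of the panel. It had 45, 26 and 18 counts in transfer, 3, 2 and 10 counts in antibiotic and 56, 44 and 9 counts in control libraries, which is 117, 34.7 and 26.9 CPM in transfer libraries, against 5.78, 7.40 and 13.8 CPM in antibiotic libraries and 122, 73.8 and 17.3 CPM in control libraries. Transfer replicate 1 carried the highest transfer level, control replicate 3 was low among controls, and no antibiotic library exceeded its limit. Against the limits of the antibiotic libraries the geometric mean of transfer libraries was at least 1.82-fold higher, with an adjusted p of 0.993 by edgeR. The fitted log2 fold change of 2.60 (SE 0.83) rests on counts below that limit and was 1.72 without transfer replicate 1.

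The chemokine Ccl2, which draws monocytes, had 36.4, 21.4 and 26.9 CPM in transfer libraries, 21.2, 14.8 and 13.8 in antibiotic libraries and 21.7, 25.2 and 15.4 in controls. All 3 transfer libraries lay above the antibiotic ones, by little: the geometric mean of transfer libraries was at least 1.05-fold above that of the antibiotic limits. Each transfer level was below the limit of antibiotic replicate 2, which was 46.7 CPM. Tnfsf8, the CD30 ligand, had 54.6, 18.7 and 41.8 CPM in transfer libraries, 21.2, 25.9 and 15.1 in antibiotic libraries and 36.9, 28.5 and 5.77 in controls. Its transfer geometric mean was at least 1.33-fold above that of those limits, although its groups overlapped in CPM. Fyn, a Src-family kinase of lymphocytes, had 36.4, 16.0 and 29.9 CPM in transfer libraries, 9.63, 40.7 and 6.88 in antibiotic libraries and 13.0, 16.8 and 7.69 in controls, and antibiotic replicate 2, the shallowest library, exceeded every transfer library in CPM without passing its own limit. For Fyn no fold over the limits could be given.

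Epithelial markers such as Pigr and Itln1 had high counts, beside a large lymphocyte signal. Not all markers of that list did: Defb1 stayed near the limit, and Ceacam1, Muc1 and Tslp were too low to test. Pigr, the receptor that carries dimeric IgA across the epithelium, had 29168, 64256 and 35400.2 CPM in transfer libraries, against 59606, 56129.9 and 50877 CPM in antibiotic libraries and 47904, 52679 and 70079 CPM in control libraries. Itln1, the goblet and Paneth cell lectin intelectin, averaged 9474 ± 1991 CPM over transfer libraries, 8884 ± 3244 over antibiotic libraries and 23379 ± 7879 over controls (SD, n = 3 each). Markers of T cells were present in every library: Cd3e, a chain of the T cell receptor complex, averaged 20383 ± 5170.0 CPM over transfer libraries, 19546 ± 1872 over antibiotic libraries and 10502 ± 6746 over controls (SD, n = 3 each). In these bulk samples fewer cells of a type and less RNA per cell cannot be told apart.

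Most epithelial markers had a lower fitted level in transfer libraries, and 0 of them passed the test. In the epithelial marker list 1 of 7 tested genes had a log2 fold change above 0 and the median was -0.37 (-0.78 without transfer replicate 2 to -0.02 without antibiotic replicate 2), against 48.7% above 0 and a median of -0.016 over the panel. None of its 7 genes separated the groups. For Pigr, transfer replicate 2 had the highest level of all 6 libraries while transfer replicates 1 and 3 had the lowest (log2 fold change -0.37, SE 0.32). Cd24a and Itln1 were the markers whose interval lay within 2-fold. Mean log2 CPM of the list was 10.81, 11.47 and 10.77 in transfer, 11.25, 11.76 and 11.29 in antibiotic and 11.40, 11.83 and 11.79 in control libraries. Transfer replicates 1 and 3, the libraries low in these markers, were those highest in the T cell list, and the part of cell makeup in any difference was not tested.

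Ccl25, the small-intestinal chemokine that draws CCR9-bearing lymphocytes, was measured at 9413, 23456 and 9025 CPM in transfer libraries, against 12547, 39082 and 15167 CPM in antibiotic libraries and 10270.5, 18628 and 26426 CPM in control libraries. Antibiotic replicate 2 was far above the rest and transfer replicate 2 came next, so the groups overlapped (log2 fold change -0.67, SE 0.51). Without antibiotic replicate 2 the log2 fold change was 0.011, on the other side of 0. Defb1, an epithelial beta-defensin, stayed near the limit with 23.4, 8.01 and 14.9 CPM in transfer libraries, 23.1, 14.8 and 55.1 in antibiotic libraries and 19.5, 23.5 and 17.3 in controls. It was detected in 0 transfer and 1 antibiotic libraries, and its log2 fold change of -1.11 was -0.38 without antibiotic replicate 3, the library above the limit. The markers Ceacam1, Muc1 and Tslp were not tested for low counts.

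The wider list of mucosal defence genes held 13 tested genes, of which 4 had a log2 fold change above 0, with a median of -0.31 (-0.78 without transfer replicate 2 to 0.073 without transfer replicate 3). Itln1 and the complement factor gene Cfb had intervals within 2-fold. Levels of the inducible nitric oxide synthase Nos2 averaged 104 ± 58.0 CPM over transfer libraries, 146 ± 53.7 over antibiotic libraries and 391 ± 172 over controls, and those of the secreted phospholipase Pla2g2a 267 ± 56.9 CPM over transfer libraries, 233 ± 55.6 over antibiotic libraries and 703 ± 391 over controls (SD, n = 3 each). Both were highest in controls, and transfer and antibiotic libraries were close to each other relative to their SD.

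**Figure D3:**
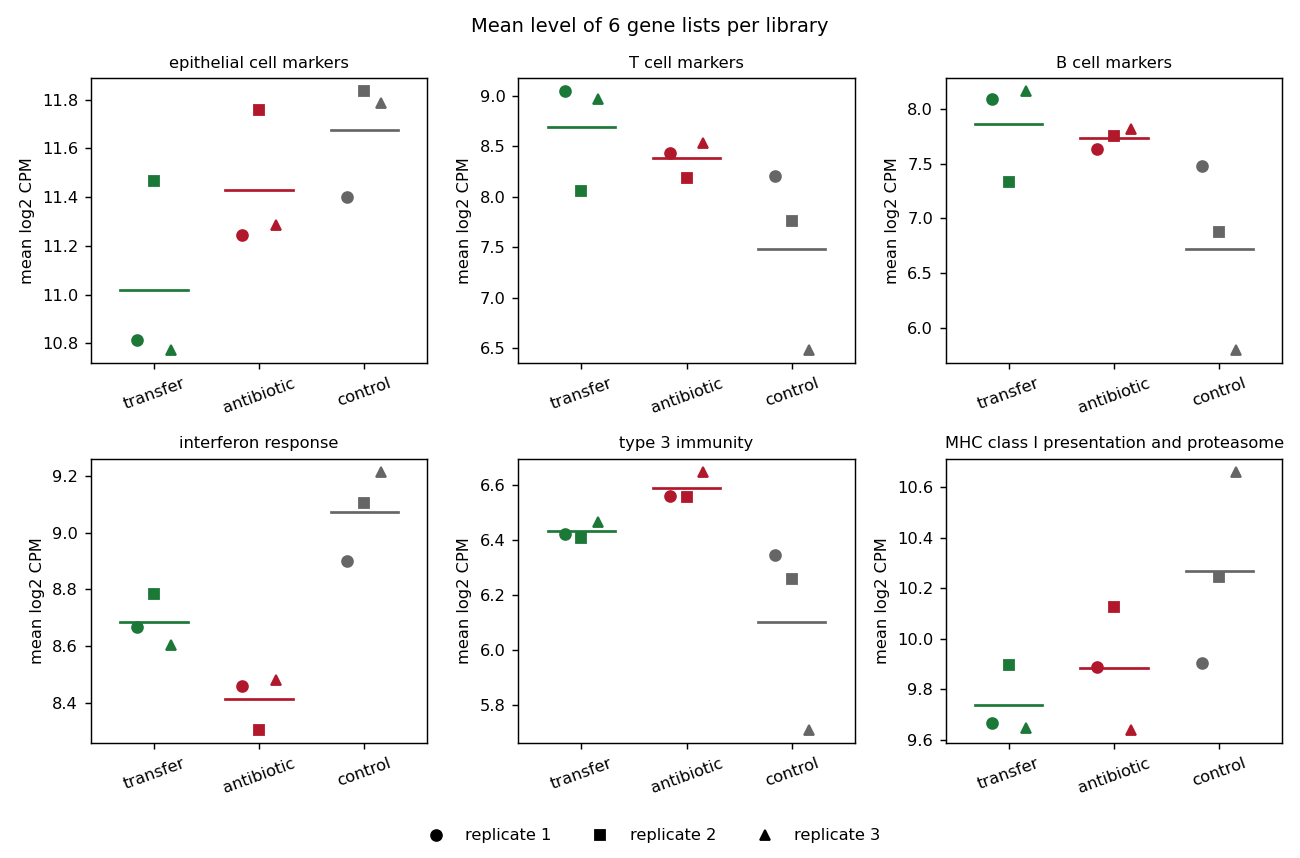
Mean log2 CPM of the tested members of 6 gene lists (vertical axis) in transfer, antibiotic and control libraries. Points are libraries, shapes replicate numbers and bars group means. Transfer and antibiotic libraries are apart in the interferon and type 3 panels and overlap in the other 4, where transfer replicate 2 lies away from replicates 1 and 3 in the epithelial and T cell panels.

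Among genes of type 3 immunity, the interleukin-17 and interleukin-22 programme of lymphocytes in the gut wall, 4 separated the groups with transfer below and 1 with transfer above, against 3.83% and 3.62% of all tested genes. Over the list 7 of 18 tested genes had a log2 fold change above 0 and the median was -0.18 (-0.32 without transfer replicate 3 to 0.024 without antibiotic replicate 2), with 0 genes past the test. The mean log2 CPM of the list was 6.42, 6.40 and 6.47 in transfer, 6.56, 6.56 and 6.65 in antibiotic and 6.34, 6.26 and 5.71 in control libraries, so that every transfer library lay below every antibiotic library by a small margin. That mean includes Il17f, a gene at the edge of detection with the lowest log2 fold change of the list, -2.75. Its part in this separation was not tested. The summed level of the list overlapped, with 3259.91 to 3526.52 CPM in transfer and 3145.08 to 3684.05 CPM in antibiotic libraries.

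Ccl20, the epithelial chemokine that draws CCR6-bearing cells, had 39.0, 48.1 and 28.4 CPM in transfer libraries, against 114, 152 and 49.6 CPM in antibiotic libraries and 39.1, 35.2 and 32.7 CPM in control libraries. All 3 antibiotic libraries exceeded every transfer library, the nearest being antibiotic replicate 3, and transfer levels were close to control levels (log2 fold change -1.42, SE 0.51, unadjusted p = 0.015 and adjusted p = 0.993 by edgeR). Its 95% interval ran from -2.52 to -0.32. Il1b, the inflammasome-processed cytokine interleukin-1 beta, had 161, 124 and 206 CPM in transfer libraries, against 275, 285 and 274 CPM in antibiotic libraries and 185, 153 and 50.0 CPM in control libraries. The antibiotic libraries were tightly grouped and above all others (log2 fold change -0.76, SE 0.46).

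Il17f, a neutrophil-recruiting cytokine, was at the edge of detection with 1, 11 and 1 counts in transfer, 17, 8 and 54 counts in antibiotic and 1, 1 and 19 counts in control libraries. It exceeded the limit in 1 transfer, 2 antibiotic and 1 control libraries. The libraries with more than 1 count, transfer replicate 2, all antibiotic libraries and control replicate 3, were also the 5 libraries with the most spike-in counts, and the part of this in its log2 fold change of -2.75 (SE 1.02, range -4.44 to -2.17) was not tested. Il22ra2, the soluble receptor that binds and blocks interleukin-22, had 304, 167 and 299 CPM in transfer libraries, 372, 314 and 376 in antibiotic libraries and 261, 218 and 44.2 in controls, a separation that came down to a small gap between transfer replicate 1 and antibiotic replicate 2 (log2 fold change -0.47, SE 0.53, range -0.64 to -0.23).

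Il6ra, the interleukin-6 receptor chain, was the type 3 gene with transfer libraries on top, at 98.9, 80.1 and 77.6 CPM in transfer libraries, 36.6, 40.7 and 70.2 in antibiotic libraries and 30.4, 75.5 and 40.4 in controls (log2 fold change 0.77, SE 0.49). Stat3, the transcription factor downstream of interleukin-6 and interleukin-22 receptors, had 783, 1251 and 705 CPM in transfer libraries, 608, 925 and 446 in antibiotic libraries and 1603, 1473 and 1729 in controls. Its groups overlapped through antibiotic replicate 2, and every control library lay above all 6 (log2 fold change 0.47, SE 0.36, range 0.18 to 0.79). Il17a, Il17b, Il23a, Il12rb1 and Ahr were left out of the test for low counts.

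The epithelial chemokines and their receptors shared Ccl20 with that list, and the groups overlapped in each of its other tested genes. Here 6 of 13 tested genes had a log2 fold change above 0 and the median was -0.15 (-0.38 without transfer replicate 2 to 0.068 without transfer replicate 1). Its mean log2 CPM was 7.02, 7.15 and 7.15 in transfer, 7.30, 7.19 and 7.35 in antibiotic and 7.05, 7.05 and 6.77 in control libraries, with every transfer library below every antibiotic library by a small margin. Its summed level overlapped, with 13034.6 to 26029.7 CPM in transfer and 16343.1 to 41759.9 CPM in antibiotic libraries. Cxcl1, a neutrophil chemokine, had 41.6, 56.1 and 37.3 CPM in transfer libraries, 84.7, 55.5 and 85.3 in antibiotic libraries and 78.2, 55.4 and 65.4 in controls, with antibiotic replicate 2 inside the transfer range (log2 fold change -0.75, SE 0.44). Cxcr2, the neutrophil receptor for Cxcl1, had 4, 15 and 21 counts in transfer, 9, 11 and 30 counts in antibiotic and 3, 8 and 7 counts in control libraries and exceeded the limit in 2 transfer and 1 antibiotic libraries.

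Interferon-response genes separated the groups with transfer on top in 4 of 17 tested genes, Ifi35, Irf7, Pml and Stat2, and with transfer below in 0, against 3.62% and 3.83% of all tested genes. Over the list 12 of 17 tested genes had a log2 fold change above 0 and the median was 0.23 (0.051 without antibiotic replicate 2 to 0.27 without antibiotic replicate 3), and 0 genes passed the test. Mean log2 CPM of the list was 8.67, 8.78 and 8.60 in transfer, 8.46, 8.30 and 8.48 in antibiotic and 8.90, 9.11 and 9.22 in control libraries: all transfer libraries lay above all antibiotic libraries and below all control libraries. The myeloid and the endothelial and stromal marker lists also lay higher in every transfer library than in every antibiotic library, and their part in this was not tested. Both of these marker lists hold genes detected in no antibiotic library. The summed level of the interferon list overlapped, with 13510.7 to 16348.5 CPM in transfer and 12263.8 to 17080.5 CPM in antibiotic libraries. In controls it was 16579.6 to 28139.2 CPM. Transfer replicate 2, the library that stood apart, was the highest of the 3, and the list median was 0.13 without it.

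Stat2, a subunit of the factor that binds interferon-stimulated response elements, had 143, 338 and 179 CPM in transfer libraries, against 104, 107 and 111 CPM in antibiotic libraries and 304, 388 and 496 CPM in control libraries. The antibiotic libraries lay within a narrow range and every transfer library was above them, with transfer replicate 2 highest (log2 fold change 1.04, SE 0.42, unadjusted p = 0.027 and adjusted p = 0.993 by edgeR). Without transfer replicate 2 the log2 fold change was 0.58. The promoter window of Stat2 is shown because it holds a copy of the core of such an element, searched on both strands as GAAA, then any 2 bases, then GAAA, and given in capitals. It spans 250 bases before to 50 bases after the start of the gene (RefSeq, GRCm38.p6, chr10:128270248-128270547, plus strand), and the copy lies on the minus strand and begins 222 bases before the start.
Stat2: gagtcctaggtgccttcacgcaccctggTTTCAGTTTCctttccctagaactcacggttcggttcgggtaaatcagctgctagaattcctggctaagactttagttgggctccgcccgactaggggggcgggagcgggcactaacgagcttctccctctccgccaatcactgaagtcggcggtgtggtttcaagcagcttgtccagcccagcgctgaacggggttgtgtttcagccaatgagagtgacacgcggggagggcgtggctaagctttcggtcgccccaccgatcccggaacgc
The promoter windows of Irf7, Ifi35 and Pml do not hold these letters. The motif was found in 5 of the 14 tested interferon-response genes with a window in that table, against 27 of 354 tested genes with a window (7.63%) and 1131 of 32851 windows in all (3.44%). A match describes the sequence and does not show that a factor binds there.

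Irf7, the factor that amplifies type I interferon production, had 494, 876 and 476 CPM in transfer libraries, against 445, 462 and 330.3 CPM in antibiotic libraries and 945, 812 and 1234 CPM in control libraries. Transfer replicate 3 lay just above the highest antibiotic library and transfer replicate 2 well above it (log2 fold change 0.58, SE 0.36, and 0.24 without transfer replicate 2). Pml, the scaffold of nuclear bodies, had 107, 49.4 and 65.7 CPM in transfer libraries, 30.8, 37.0 and 45.4 in antibiotic libraries and 76.0, 111 and 123 in controls, where transfer replicate 1 was the highest of the 6 (log2 fold change 0.94, SE 0.47). Ifi35, an interferon-induced regulator, had 970.4, 1458 and 940.4 CPM in transfer libraries, 936, 925 and 765 in antibiotic libraries and 1405, 1696 and 2034 in controls and separated the groups by a gap far smaller than their spread (log2 fold change 0.36, SE 0.32, and 0.13 without transfer replicate 2). The groups overlapped in the other 13 tested genes. The intervals of Irf1, Ddx58 and Irgm1 lay within 2-fold, and the log2 fold changes of the list ran from -0.49 to 1.04.

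**Figure D4:**
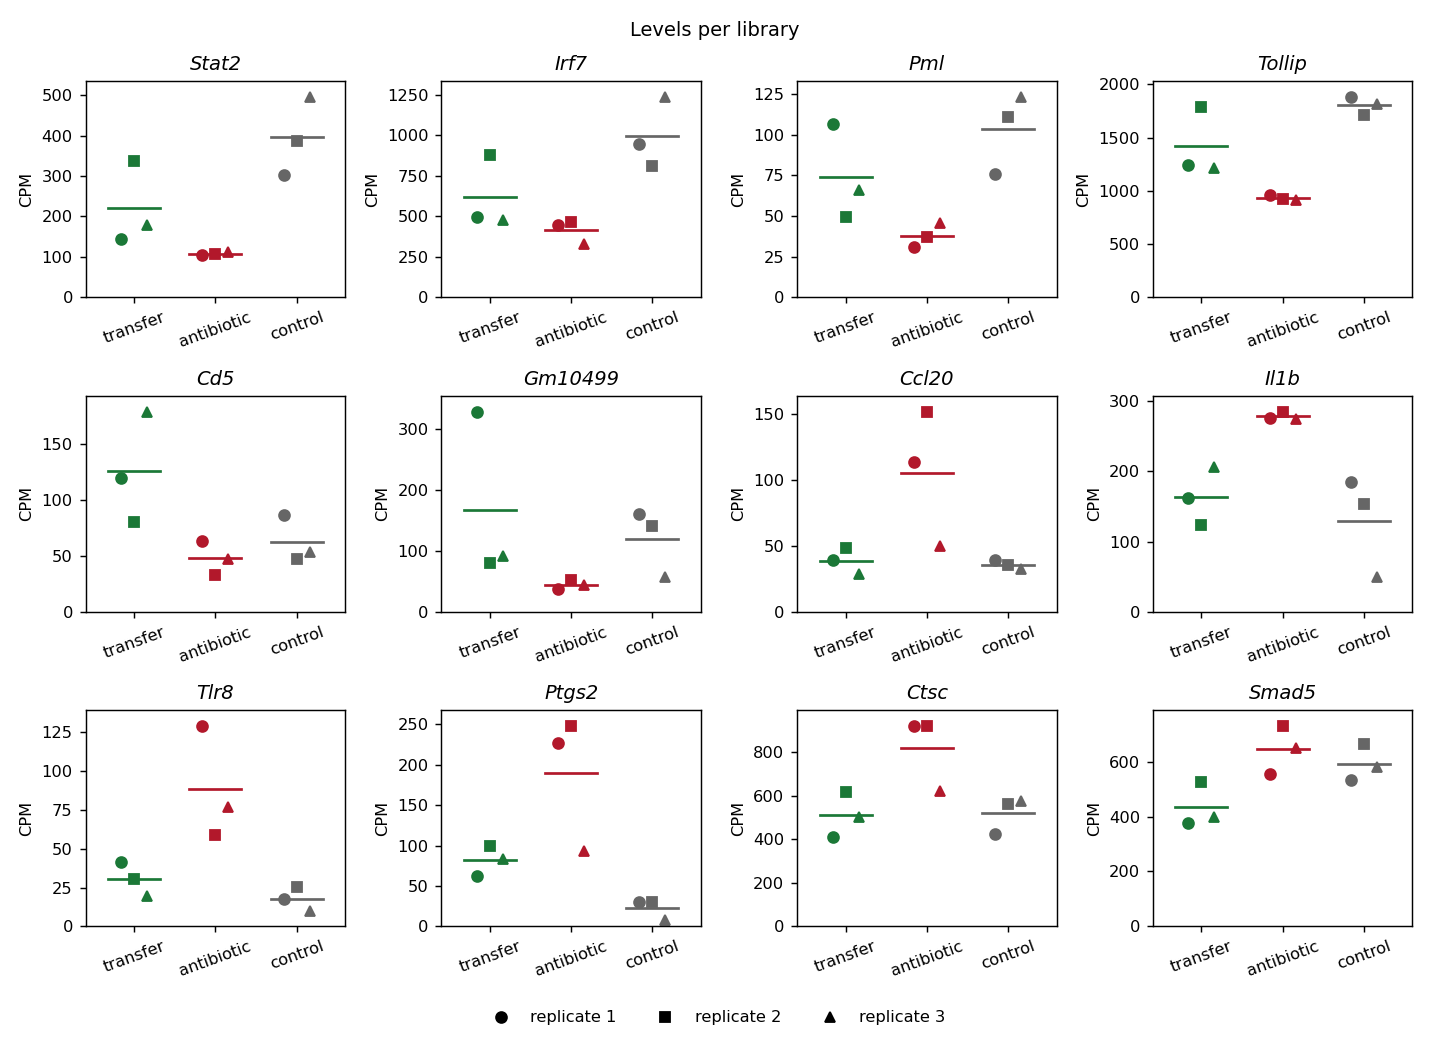
CPM per library (vertical axes from 0) of 12 genes in transfer, antibiotic and control libraries. Points are libraries, shapes replicate numbers and bars group means. Transfer libraries lie above all antibiotic libraries for Stat2, Irf7, Pml, Tollip, Cd5 and Gm10499 and below them for Ccl20, Il1b, Tlr8, Ctsc and Smad5, while the groups overlap for Ptgs2.

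Microbial sensing genes held one gene on each side. In the Toll-like and NOD receptor list 7 of 21 tested genes had a log2 fold change above 0 and the median was -0.053 (-0.26 without transfer replicate 2 to 0.019 without antibiotic replicate 3), and 4 genes (Cd14, Irak2, Irak3 and Tlr2) had intervals within 2-fold. Tlr8, an endosomal receptor for RNA, had 41.6, 30.7 and 19.4 CPM in transfer libraries, against 129, 59.2 and 77.1 CPM in antibiotic libraries and 17.4, 25.2 and 9.61 CPM in control libraries. Transfer levels were between those of antibiotic and control libraries on average (log2 fold change -1.56, SE 0.54, unadjusted p = 0.013 and adjusted p = 0.993 by edgeR). Counts were 13 to 23 in transfer libraries, against limits of 10.4 to 13.8 counts. In antibiotic libraries they were 16 to 67, against limits of 12.0 to 12.6. Tollip, which restrains Toll-like receptor signalling, had 1246, 1787 and 1215 CPM in transfer libraries, against 965, 921 and 911 CPM in antibiotic libraries and 1881, 1715 and 1811 CPM in control libraries. Here the counts were high, the antibiotic libraries lay close together, and every transfer library was above them (log2 fold change 0.60, SE 0.30, 95% interval -0.037 to 1.24, and 0.40 without transfer replicate 2).

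Ly96, the MD-2 co-receptor of Tlr4 for lipopolysaccharide, had 148, 144 and 119 CPM in transfer libraries, 137, 459 and 220.2 in antibiotic libraries and 224, 257 and 287 in controls. The groups overlapped and antibiotic replicate 2 carried much of the difference (log2 fold change -0.97, SE 0.45, and -0.38 without it). Cd36, a scavenger and fatty acid receptor that also serves as a Toll-like co-receptor, had 154, 235 and 124 CPM in transfer libraries, 266, 414 and 222 in antibiotic libraries and 159, 158 and 187 in controls (log2 fold change -0.80, SE 0.40, range -1.11 to -0.51). Transfer replicate 2 was inside the antibiotic range. Its level was higher in each of the 5 libraries with the most spike-in counts than in each of the other 4, and the part of this in the difference was not tested. Nod2 was left out of the test for low counts.

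Signalling through NF-kB, the factor family downstream of these receptors, gave no gene with separated groups. In that list 12 of 20 tested genes had a log2 fold change above 0 and the median was 0.04 (-0.057 without transfer replicate 2 to 0.14 without antibiotic replicate 2), and 8 of its genes had intervals within 2-fold: Ikbkap, Ikbkb, Ikbke, Nfkbia, Tbk1, Traf2, Traf5 and Traf6. Rela, the main transactivating subunit, had 167, 292 and 146 CPM in transfer libraries, 148, 99.9 and 131 in antibiotic libraries and 149.9, 166 and 221 in controls, where transfer replicate 2 was highest (log2 fold change 0.67, SE 0.41, and 0.30 without it). Chuk, the IKK-alpha kinase, had 1707, 2598 and 2035 CPM in transfer libraries, 3038, 4479 and 1767 in antibiotic libraries and 2296, 3478 and 4273 in controls, where antibiotic replicate 2 was highest (log2 fold change -0.55, SE 0.38, and -0.18 without it).

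Some antigen presentation genes were among the best measured of the panel. B2m, which encodes beta-2-microglobulin of the class I complex, had 107148, 139119 and 117207 CPM in transfer libraries, against 151816, 181395 and 117457 CPM in antibiotic libraries and 114146, 136664 and 198849 CPM in control libraries. The groups overlapped (log2 fold change -0.31, SE 0.29, range -0.46 to -0.15), and the interval of -0.94 to 0.32 lay within 2-fold. Over the class I and proteasome list 3 of 13 tested genes had a log2 fold change above 0 and the median was -0.27 (-0.36 without transfer replicate 2 to -0.14 without transfer replicate 3), and the proteasome genes Psmb7, Psmb9, Psmb10 and Psmc2 also had intervals within 2-fold. Bcap31, an endoplasmic reticulum chaperone of class I export, had 83.3, 77.4 and 52.2 CPM in transfer libraries, 88.6, 85.1 and 85.3 in antibiotic libraries and 71.7, 78.9 and 242 in controls, and Psmb5, a constitutive proteasome catalytic subunit, had 31.2, 29.4 and 29.9 CPM in transfer libraries, 38.5, 37.0 and 34.4 in antibiotic libraries and 32.6, 50.3 and 78.8 in controls. In both, transfer libraries lay below antibiotic libraries by less than the SE of the difference. Psmb5 was near the limit. Transfer replicate 1 was below its limit of 35.9 CPM for it, and antibiotic replicate 2 below its limit of 46.7 CPM.

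Psmd7, a regulatory subunit of the proteasome, had 1642, 2584 and 1633 CPM in transfer libraries, 2576, 5326 and 1882 in antibiotic libraries and 2558, 4231 and 6155 in controls. Antibiotic replicate 2 was the highest of the 6 libraries (log2 fold change -0.74, SE 0.43, and -0.19 without it). Psmb7, another catalytic subunit, had 3814, 5228 and 4435 CPM in transfer libraries, 5866, 6713 and 4673 in antibiotic libraries and 5340.5, 6674 and 7865 in controls, with transfer replicate 2 above the lowest antibiotic library (log2 fold change -0.36, SE 0.29, range -0.49 to -0.21). For MHC class II, 6 of 8 tested genes had a log2 fold change above 0 and the median was 0.16 (0.0045 without transfer replicate 3 to 0.31 without antibiotic replicate 1). Cd74 (the invariant chain), H2-DMa and H2-Eb1 had intervals within 2-fold. H2-Ab1, a class II beta chain, had 73, 72 and 67 counts in transfer, 51, 23 and 79 counts in antibiotic and 111, 97 and 84 counts in control libraries, and without transfer replicate 1 its log2 fold change of 0.38 was 0.042. Ctss, the cathepsin that cleaves the invariant chain, had 59.8, 66.7 and 49.3 CPM in transfer libraries, 75.1, 115 and 81.2 in antibiotic libraries and 65.2, 92.3 and 106 in controls, with the groups separated (log2 fold change -0.61, SE 0.43).

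Lymphocyte genes had high counts in both groups. Ccl5, a chemokine of effector T cells, had 92818, 79425 and 110550.0 CPM in transfer libraries, against 88236, 114376 and 83336 CPM in antibiotic libraries and 64357, 54169 and 18102 CPM in control libraries. Its log2 fold change was -0.016 (SE 0.39) with an interval of -0.86 to 0.82, and it lay on the other side of 0 under several scalings. Gzma, a granzyme of cytotoxic lymphocytes, had 71723, 56781 and 82024 CPM in transfer libraries, against 58505, 67223 and 55396 CPM in antibiotic libraries and 40359, 55617 and 17162 CPM in control libraries, with overlap between transfer and antibiotic libraries (log2 fold change 0.22, SE 0.37, range 0.057 to 0.35). In the cytotoxic and intraepithelial lymphocyte list 9 of 18 tested genes had a log2 fold change above 0 and the median was -0.003 (-0.17 without transfer replicate 3 to 0.17 without transfer replicate 2). Ccl5, Cd160, Cd69, Fasl, Gzmb, Klrd1 and Slamf7 had intervals within 2-fold.

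Receptors of natural killer type gave 1 separated gene and 1 with overlap. Klrc1, the inhibitory NKG2A chain, had 96.3, 85.4 and 70.2 CPM in transfer libraries, 123, 170.1 and 143 in antibiotic libraries and 115, 75.5 and 9.61 in controls, and all 3 antibiotic libraries lay above the transfer libraries (log2 fold change -0.79, SE 0.62). Klrk1, the activating receptor NKG2D, had 148, 48.1 and 193 CPM in transfer libraries, 96.3, 85.1 and 75.7 in antibiotic libraries and 97.7, 47.0 and 34.6 in controls. Transfer replicate 2 was the lowest of the 6 and the other transfer libraries the highest (log2 fold change 0.59, SE 0.55, and 0.13 without transfer replicate 3).

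T cell markers had 13 of 18 tested genes above 0, with a median of 0.21 (0.074 without transfer replicate 3 to 0.46 without transfer replicate 2). Mean log2 CPM of the list was 9.05, 8.06 and 8.97 in transfer, 8.43, 8.18 and 8.54 in antibiotic and 8.21, 7.76 and 6.48 in control libraries. Transfer replicates 1 and 3 were above every antibiotic library and transfer replicate 2 was below them all. Cd5, an inhibitory co-receptor of T and B cells, had 119.7, 80.1 and 179 CPM in transfer libraries, against 63.5, 33.3 and 46.8 CPM in antibiotic libraries and 86.9, 47.0 and 53.8 CPM in control libraries. It was the T cell marker whose groups separated, with counts of 46 to 120 in transfer and 9 to 34 in antibiotic libraries (log2 fold change 1.38, SE 0.48, unadjusted p = 0.014 and adjusted p = 0.993 by edgeR).

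Cd8b1, the beta chain of the CD8 co-receptor carried by conventional cytotoxic T cells, had 91.1, 22.7 and 44.8 CPM in transfer libraries, 13.5, 11.1 and 24.8 in antibiotic libraries and 34.7, 16.8 and 7.69 in controls. Transfer replicate 1 was highest, transfer replicate 2 lay below antibiotic replicate 3, and the log2 fold change of 1.58 (SE 0.69) was 1.01 without transfer replicate 1. Cd3d was the T cell marker with an interval within 2-fold. Regulatory T cell and checkpoint genes gave no separated gene, and 13 of 24 tested genes had a log2 fold change above 0 and the median was 0.022 (0.007 without antibiotic replicate 3 to 0.12 without transfer replicate 1). Tgfb1, the ligand transforming growth factor beta 1, had 11, 27 and 12 counts in transfer, 6, 2 and 14 counts in antibiotic and 6, 15 and 15 counts in control libraries and passed the limit in 1 library of each group. Tgfbr2, a receptor for that ligand, had 575, 312 and 433 CPM in transfer libraries, 112, 252 and 453 in antibiotic libraries and 541, 305 and 259.6 in controls, where antibiotic replicate 1 was far below the rest (log2 fold change 0.69, SE 0.50, and 0.31 without it). Foxp3 was left out of the test for low counts.

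B cell markers overlapped throughout, and 11 of 16 tested genes had a log2 fold change above 0 and the median was 0.18 (0.01 without transfer replicate 3 to 0.43 without transfer replicate 2). Ikzf3, the lymphoid factor Aiolos, had 401, 232 and 469 CPM in transfer libraries, 150.2, 203 and 273 in antibiotic libraries and 143, 208 and 61.5 in controls (log2 fold change 0.81, SE 0.48). Cxcr5, the follicle-homing receptor, had 59.8, 36.0 and 65.7 CPM in transfer libraries, 94.3, 55.5 and 116 in antibiotic libraries and 23.9, 23.5 and 19.2 in controls (log2 fold change -0.74, SE 0.47). Both had the 2 groups interleaved. Cxcl13, the chemokine ligand of Cxcr5, had 2, 24 and 4 counts in transfer, 35, 8 and 41 counts in antibiotic and 4, 11 and 11 counts in control libraries, above the limit in 1 transfer, 2 antibiotic and 1 control libraries. It, too, was higher in each of the 5 libraries with the most spike-in counts than in the other 4, and its log2 fold change of -1.76 was -3.15 without transfer replicate 2. In the follicle list 6 of 13 tested genes had a log2 fold change above 0 and the median was -0.00058 (-0.14 without transfer replicate 3 to 0.17 without transfer replicate 2). Gpr183, the oxysterol receptor that positions lymphocytes around follicles, had 439.7, 311 and 409 CPM in transfer libraries, 605, 469.8 and 471 in antibiotic libraries and 172, 151 and 44.2 in controls, with the groups separated and controls far below (log2 fold change -0.42, SE 0.45).

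The lists for myeloid cells and for endothelial and stromal cells had higher mean log2 CPM in every transfer library than in every antibiotic library, as the interferon list did. Of all 21 lists, these 3 had transfer above, 2 had transfer below and 16 overlapped. The endothelial and stromal list includes Vtn, and the myeloid list Fcgr4 and C1qa, all detected in 0 antibiotic libraries. The part of these near-limit genes in the separation of their lists was not tested. The myeloid markers Fcgr1, Msr1, Marco, Cd163 and Ccr2 and the endothelial and stromal markers Cdh5, Sele, Fn1, Cxcl12 and Pdgfb were too low to test. In the myeloid list 9 of 14 tested genes had a log2 fold change above 0 and the median was 0.15 (0.045 without antibiotic replicate 2 to 0.37 without antibiotic replicate 3). Its mean log2 CPM was 6.83, 6.76 and 6.88 in transfer, 6.71, 6.40 and 6.72 in antibiotic and 6.98, 6.72 and 5.92 in control libraries, with transfer above antibiotic libraries, while its summed level of 5459 to 8189 CPM in transfer libraries, 5778 to 6654 CPM in antibiotic libraries and 4023 to 5939 CPM in controls overlapped. C1qa, a complement subunit made by macrophages, had 13, 27 and 9 counts in transfer, 7, 3 and 10 counts in antibiotic and 15, 20 and 13 counts in control libraries and passed the limit in 1 transfer, 0 antibiotic and 3 control libraries. Fcgr4, an activating Fc receptor of myeloid cells, had 4, 43 and 17 counts in transfer, 3, 4 and 11 counts in antibiotic and 14, 7 and 14 counts in control libraries and passed in 2 transfer, 0 antibiotic and 2 control libraries. For both no fold over the limit could be given. Among granulocyte genes S100a8, a calprotectin subunit of neutrophils, had 127, 100.1 and 158 CPM in transfer libraries, 55.8, 7.40 and 106 in antibiotic libraries and 106, 121 and 23.1 in controls. Antibiotic replicate 2, with 2 counts, was the low library, and the log2 fold change of 1.12 was 0.66 without it. Pecam1, an endothelial and leukocyte adhesion protein, had 731, 454 and 734 CPM in transfer libraries, 651, 329 and 425 in antibiotic libraries and 426, 376 and 144 in controls (log2 fold change 0.45, SE 0.44, range 0.25 to 0.76). Beside Vtn, the endothelial and stromal list had 0 separated genes, with 4 of 7 above 0 and a median of 0.43 (0.16 without transfer replicate 3 to 0.64 without transfer replicate 2). Its mean log2 CPM was 7.31, 6.90 and 7.17 in transfer, 6.73, 6.50 and 6.82 in antibiotic and 7.26, 7.06 and 6.41 in control libraries, and its summed level was 2014 to 2581 CPM in transfer libraries, 1817 to 2168 CPM in antibiotic libraries and 2187 to 2923 CPM in controls. The granulocyte list had 3 of 7 above 0 and a median of -0.15 (-0.43 without transfer replicate 3 to 0.076 without antibiotic replicate 3).

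**Figure D5:**
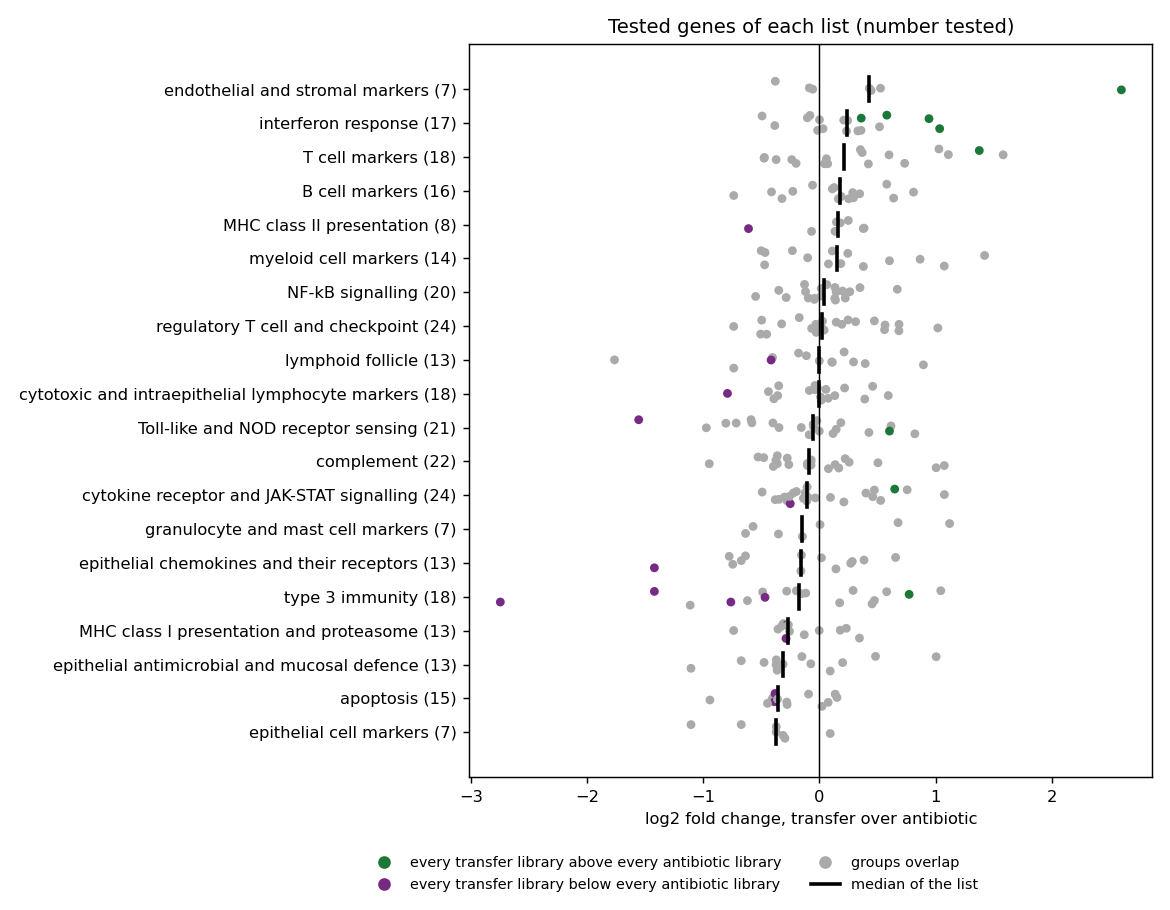
Log2 fold change of transfer over antibiotic (horizontal axis) for the tested genes of 20 lists, with the number tested in brackets and lists ordered by median (black bars). Green points are genes with every transfer library above every antibiotic library, purple points the reverse, and grey points genes whose groups overlap. All but one of the list medians lie between -0.37 and 0.23, the endothelial and stromal list being higher at 0.43.

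Apoptosis genes lay mostly on the lower side: 4 of 15 tested genes had a log2 fold change above 0 and the median was -0.36 (-0.46 without transfer replicate 2 to -0.22 without antibiotic replicate 2). Casp8, the initiator caspase of death receptors, had 481, 535 and 358 CPM in transfer libraries, 576, 651 and 569.8 in antibiotic libraries and 249.8, 795 and 1438 in controls, with the groups separated (log2 fold change -0.39, SE 0.49). Fas, a death receptor, had 271, 366 and 276 CPM in transfer libraries, 449, 444 and 354 in antibiotic libraries and 334, 312 and 383 in controls (log2 fold change -0.45, SE 0.33), and Fadd, the adaptor between Fas and Casp8, had 5, 17 and 9 counts in transfer, 10, 13 and 23 counts in antibiotic and 8, 22 and 41 counts in control libraries. Fas overlapped by 1 transfer library and was higher in each of the 5 libraries with the most spike-in counts than in the other 4, and Fadd passed the limit in 1 transfer and 2 antibiotic libraries. Bid, Fasl and Tnfsf10 had intervals within 2-fold.

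Cytokine receptors, their kinases and STAT factors were spread about 0, and 9 of 24 tested genes had a log2 fold change above 0 and the median was -0.11 (-0.25 without transfer replicate 2 to 0.00085 without antibiotic replicate 1). Jak3, the kinase of the common gamma chain, had 46.8, 52.1 and 52.2 CPM in transfer libraries, 38.5, 40.7 and 19.3 in antibiotic libraries and 56.5, 31.9 and 30.8 in controls, with transfer above (log2 fold change 0.65, SE 0.51, range 0.35 to 0.82). Il18r1, the interleukin-18 receptor chain, had 101, 103 and 110.5 CPM in transfer libraries, 119, 111 and 143 in antibiotic libraries and 67.3, 73.8 and 48.1 in controls, with transfer below by less than the SE (log2 fold change -0.25, SE 0.39, range -0.33 to -0.14). Stat5a, a factor downstream of interleukin-2 and interleukin-7 receptors, had 59.8, 80.1 and 25.4 CPM in transfer libraries, 3.85, 22.2 and 49.6 in antibiotic libraries and 76.0, 55.4 and 61.5 in controls. The antibiotic libraries covered the widest range, from 2 to 36 counts, and the log2 fold change of 1.08 was 0.56 without antibiotic replicate 1. Ifnar1, Ifnar2, Ifngr1, Jak2 and Stat4 had intervals within 2-fold.

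Complement genes were near the limit for the most part, and 8 of 22 tested genes had a log2 fold change above 0 and the median was -0.088 (-0.27 without transfer replicate 2 to 0.10 without transfer replicate 3). Cd59b, an inhibitor of the membrane attack complex, had 8, 19 and 8 counts in transfer, 10, 16 and 27 counts in antibiotic and 25, 21 and 22 counts in control libraries, above the limit in 1 transfer, 2 antibiotic and 3 control libraries. Of the autophagy list only Atg16l1, a protein of autophagosome formation, was tested. It had 1, 44 and 1 counts in transfer, 39, 30 and 25 counts in antibiotic and 1, 7 and 60 counts in control libraries. Transfer replicates 1 and 3 had 1 count each and transfer replicate 2 had 44, so the log2 fold change of -1.69 (SE 1.19, range -5.06 to -1.14) described no common level of the group. These levels split the 9 libraries as the spike-in counts did, the 5 highest in one being the 5 highest in the other.

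Several genes outside the lists stood out by their p or by separated groups. Ptgs2, the inducible cyclooxygenase, had 62.4, 100.1 and 83.6 CPM in transfer libraries, against 227, 248 and 93.6 CPM in antibiotic libraries and 30.4, 30.2 and 7.69 CPM in control libraries. Both groups lay above controls, and antibiotic replicate 3 fell within the transfer range (log2 fold change -1.19, SE 0.53, unadjusted p = 0.044 and adjusted p = 0.993 by edgeR). Gm10499, a predicted gene, had 328, 80.1 and 91.1 CPM in transfer libraries, 36.6, 51.8 and 44.0 in antibiotic libraries and 161, 141 and 57.7 in controls, where transfer replicate 1 was far above the rest (log2 fold change 1.90, SE 0.61, and 1.01 without it). Gm10499, Ccl2, Tnfsf8 and S100a8 were lower in each of the 5 libraries with the most spike-in counts than in each of the other 4, which was not tested as a part of their differences. Mapk11, a p38 kinase, had 8, 28 and 28 counts in transfer, 3, 1 and 11 counts in antibiotic and 6, 4 and 10 counts in control libraries. It passed the limit in 2 transfer and 0 antibiotic libraries, and no fold over the limits is given because transfer replicate 1 was below its own.

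Ctsc, the cathepsin that activates granzymes, had 408, 617 and 502 CPM in transfer libraries, 918, 917 and 619 in antibiotic libraries and 424, 564 and 575 in controls. Transfer libraries lay below antibiotic libraries, with transfer replicate 2 and antibiotic replicate 3 almost level, and the split by spike-in counts held for it as well (log2 fold change -0.68, SE 0.34). Il1rap, the shared co-receptor of the interleukin-1 family, had 122, 155 and 206 CPM in transfer libraries, 223, 411 and 235 in antibiotic libraries and 159, 232 and 188 in controls (log2 fold change -0.83, SE 0.40, range -1.07 to -0.51), and Smad5, a transducer of bone morphogenetic protein signals, had 377, 527 and 399 CPM in transfer libraries, 556, 729 and 648 in antibiotic libraries and 532, 663 and 579 in controls (log2 fold change -0.57, SE 0.32). Both separated the groups with transfer below. Tnfsf15, the TL1A ligand, had 46.8, 78.8 and 32.8 CPM in transfer libraries, 175, 129 and 49.6 in antibiotic libraries and 71.7, 85.6 and 48.1 in controls and overlapped through antibiotic replicate 3 (log2 fold change -1.14, SE 0.55, range -1.57 to -0.72).

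Tcf4, an E-protein factor, had 591, 465 and 606 CPM in transfer libraries, 784, 951 and 633 in antibiotic libraries and 354, 386 and 296 in controls, and Ccl9, a chemokine for CCR1-bearing cells, had 942, 1061 and 991 CPM in transfer libraries, 1111, 2008 and 1153 in antibiotic libraries and 1538, 2324 and 1469 in controls. In both, transfer libraries lay below antibiotic libraries, with log2 fold changes of -0.51 (SE 0.33) and -0.51 (SE 0.34). Without antibiotic replicate 2 that of Ccl9 was -0.18. On the other side, Pparg, a nuclear receptor for lipid ligands, had 52.0, 105 and 44.8 CPM in transfer libraries, 32.7, 33.3 and 41.3 in antibiotic libraries and 65.2, 67.1 and 71.1 in controls (log2 fold change 0.91, SE 0.48, and 0.42 without transfer replicate 2). Notch2, a receptor of cell fate signals, had 65.0, 40.0 and 38.8 CPM in transfer libraries, 36.6, 7.40 and 19.3 in antibiotic libraries and 58.6, 60.4 and 23.1 in controls, with transfer above and antibiotic replicate 2 at 2 counts (log2 fold change 1.10, SE 0.61, range 0.78 to 1.69). Ccr4, a T cell chemokine receptor, and Syk, a kinase of immune receptors, also had transfer above, with 11 to 23 counts for Ccr4 and 7 to 14 counts for Syk in transfer libraries, around the limit. Polr1b, a housekeeping probe for an RNA polymerase I subunit, had 80.7, 90.8 and 79.1 CPM in transfer libraries, 42.4, 59.2 and 72.9 in antibiotic libraries and 82.5, 109 and 96.1 in controls and was separated as well (log2 fold change 0.52, SE 0.42, range 0.33 to 0.73).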

How the data were processed

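RNA of ileal epithelial cells was hybridised to an nCounter mouse immunology panel, in which colour-coded probe pairs are counted without amplification. The deposited raw counts per probe, unnormalized per the file headers, were used for every test. The authors also deposited a normalized signal table, whose values equalled the counts times 1 factor per library, namely 7047 divided by the mean of its 14 housekeeping counts (largest relative deviation 5.29e-10). This was found from the values and served as an alternative. Counting software is not given in the sources used here. Intervals cover the spread between 3 libraries per group, and total counts of 323129 to 747434 set the depth.

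One edgeR 4.0.16 fit (R 4.3.3) over all 9 libraries (glmQLFit, glmQLFTest, TMM, no covariates) gave transfer minus antibiotic. Kept genes exceeded the mean plus 2 SD of the 8 negative controls in at least 3 libraries. P-values were Benjamini-Hochberg adjusted over 470 genes with a threshold of 0.05. The biological coefficient of variation was 41.7%. SEs are the log2 fold change over the root of F, and levels are TMM-scaled CPM with SD over 3 libraries. List means use log2 CPM with a prior count of 2. An "at least" fold sets the brighter group's geometric mean CPM against the geometric mean of the dimmer group's limits, or of its own values where higher. No 2 libraries were duplicates (lowest chi-square per degree of freedom 5.93).

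The groups and the 21 gene lists were chosen with earlier results of these data known. Genes were named by rule: the 20 smallest p, up to 2 members per list, the 4 highest levels, and those detected in all of one group and none of the other, 52 in all. A further 18, whose groups did not overlap, were added after their values were seen, as were those given only as levels or by their interval. No label pairs libraries by replicate number. Deviations of same-numbered transfer and antibiotic libraries correlated at 0.029, 0.12 and -0.23, and so few values cannot exclude a pairing. DESeq2 1.42.0, limma 3.58.1 and other scalings, filters, fits and left-out libraries were run as alternatives. The procedure was tested on simulated counts. Probe sequences were not used here, and some genes are not reported here.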

Additional observations from a re-analysis of the deposited data

How the results depend on the processing

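The number of genes past an adjusted p of 0.05 was 0 under each alternative run, namely DESeq2, limma-voom, a robust fit, upper-quartile, housekeeping, spike-in and total count scaling, no filter, a strict filter, background subtraction, a fit of the 6 libraries alone, the replicate block, the deposited signal and each library left out. At an adjusted p under 0.10 it was 147 with spike-in scaling and 0 under each of the others. The smallest adjusted p was 0.253 by DESeq2, 0.0988 with spike-in scaling and 0.372 in the fit of 6 libraries. By edgeR it was 0.288 without transfer replicate 2 and 0.297 without control replicate 3. Genes at an unadjusted p under 0.05 numbered 212 with spike-in scaling, 23 with no filter, 4 with the strict filter, and 6 to 34 when a library was left out. Genes with an interval within 2-fold numbered 0 with spike-in scaling, 141 in the fit of 6 libraries, which leaves out the more variable control libraries, and 28 to 149 when a library was left out. The replicate block gave 0 calls, 10 genes at an unadjusted p under 0.05 and 72 within 2-fold. Among named genes 1458 recomputed values kept their direction and 50 did not, and among counts and list medians 68 moved and 328 did not.

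Spike-in scaling moved the median log2 fold change of all genes to 2.03 and so turned these genes positive: Tlr8 0.58, Ccl20 0.96, Ptgs2 1.08, Ly96 1.35, Tnfsf15 1.12, Il1rap 1.33, Ctsc 1.43, Cd36 1.39, Defb1 0.76, Ccl25 1.57, Cxcl1 1.15, Klrc1 1.34, Cxcr5 1.18, Cxcr2 1.17, Psmd7 1.62, Psmb7 1.77, Ctss 1.53, Chuk 1.76, Cd59b 1.17, Fadd 1.06, Fas 1.64, Atg16l1 0.23, B2m 1.85, Pigr 1.58, Bcap31 1.81, Casp8 1.72, Ccl9 1.71, Gpr183 1.72, Il18r1 1.71, Il1b 1.32, Il22ra2 1.63, Psmb5 1.79, Smad5 1.46 and Tcf4 1.72. Ccl25 ran from -1.27 to 0.011 when a library was left out, turning without antibiotic replicate 2. Ccl5, at -0.016, turned to 0.028 with DESeq2, 0.12 with upper-quartile, 0.13 with housekeeping, 2.16 with spike-in and 0.075 with total count scaling, 0.076 with no filter, 0.082 with the strict filter, 0.0030 with background subtracted, 0.0023 in the fit of 6 libraries, 0.028 with the replicate block and 0.14 in the deposited signal. It ran from -0.18 to 0.14 when a library was left out. The cause of these changes was not tested beyond the shift of all genes. Low counts limited the 117 genes with the lowest levels, of which 0 had an interval within 2-fold.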

Other observations

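Spike-in counts varied 11.8-fold between libraries, with the 3 antibiotic libraries, control replicate 3 and transfer replicate 2 at 13211 or more and the other 4 at 9344 or fewer. In a split chosen after the data were seen, 9 of the 470 tested genes (1.91%) were higher in each of those 5 libraries than in each of the other 4: Atg16l1, Cd36, Ctsc, Cxcl13, Fas, Il17f, Ptafr, Ptpn2 and Tyk2. A further 8 genes (1.7%) were lower in each of the 5: Ccl2, Ccl26, Fcer1g, Gm10499, Klra6, Map4k1, S100a8 and Tnfsf8. These genes were selected by that split, so their grouping of transfer replicate 2 with the antibiotic libraries and control replicate 3 follows from the selection. Whether the spike-in counts have a part in their differences between groups was not tested.

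Some of the named genes stood on one side of controls in both groups. Gpr183, Tlr8, Ptgs2 and Il22ra2 were higher on average in both transfer and antibiotic libraries than in controls, while Stat2, Irf7 and Tollip were lower in both. Single transfer libraries overlapped controls for Tlr8, Il22ra2, Stat2, Irf7 and Tollip. For Stat2 the group means were 220.0 ± 104 CPM over transfer libraries, 108 ± 3.77 over antibiotic libraries and 396 ± 96.3 over controls (SD, n = 3 each), and for Ptgs2 they were 82.0 ± 18.9 CPM over transfer libraries, 189.5 ± 83.7 over antibiotic libraries and 22.8 ± 13.1 over controls (SD, n = 3 each).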
